A study of Mus musculus with 12 samples.

Results

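Cerebellar granule neural progenitors (GNPs, 2 samples) were compared with whole cerebellum (2 samples) across all genes measured on Affymetrix mouse expression arrays. These 4 samples are all the normal tissue among the 12 samples of the series, and the 8 medulloblastomas (MBs) entered the comparison only to lend their estimate of the spread between samples. The GNP samples were chosen by a title that names cerebellar granule progenitors and the cerebellum samples by one that names whole cerebellum, and each title carries a number of its own. The labels give no genotype, age, sex or treatment for the 4 normal samples. The study's text describes them as non-neoplastic cerebellum and GNPs of control animals that match the tumor-bearing mice in age and genotype. The study's text gives Nestin-Cre p53-/- mice with Xrcc4 c/- or Xrcc4 c/c as the source of its MBs, without saying which each array had. In these mice Cre under the nestin promoter deletes the conditional Xrcc4 allele in neural progenitors and their descendants in a p53-deficient animal. How the GNPs were isolated, whether they were cultured and the ages in days of the normal samples are not given in the sources used here.

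Granule neurons are the most numerous neurons of the brain. Their progenitors arise at the rhombic lip under the transcription factor ATOH1, spread over the surface of the young cerebellum as the external granule layer and divide there in response to Sonic hedgehog released by Purkinje cells. Hedgehog signaling switches on Gli1, Ptch1, Mycn and the D cyclins. Progenitors that leave the cell cycle turn on genes of neuronal differentiation, extend axons and migrate inward along the fibers of Bergmann glia to the internal granule layer, where they form synapses and acquire the receptors and channels of mature granule neurons. A sample of whole cerebellum holds these mature neurons together with Purkinje cells, interneurons, glia and vessels. GNPs are also regarded as cells of origin of hedgehog-driven MBs.

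The deposited values are log2 expression levels that go no lower than a floor of 2.20, and each gene was the mean of its gene-specific probe sets. In this text a difference is the mean log2 level of the GNPs minus that of cerebellum, 2 values joined by "and" are those of replicate 1 and replicate 2 in that order, and a call is an adjusted p under 0.05 in limma (two-sided, Benjamini-Hochberg over 18193 genes). Where both samples of a tissue lay within 0.3 of the floor, the difference is a bound and is given as "at least" or "at most". Levels of different genes are not compared, because probe sets differ in how strongly they bind.

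In GNPs 2703 genes (14.9%) were called higher than in cerebellum and 2477 (13.6%) lower, 5180 of the 18193 tested, with a median difference of 0 over all genes. The counts of each list below are to be read beside these shares of all genes. Both GNP samples lay on the same side of both cerebellum samples for each of these 5180 genes, as they did in one or the other direction for 31.5% (above) and 27.8% (below) of all genes. The 20 highest differences included Mki67, a gene of dividing cells, Sox11, Insm1, Robo2 and Dpysl3, genes of young neurons, and Fos, an immediate early gene, and the 20 lowest included the Purkinje cell genes Rgs8 and Pcp2, the granule neuron genes Gabra6 and Cbln3 and the myelin gene Mal. Ranks here and below are among called genes, with predicted gene models left out. Between the GNP samples 281 genes differed by more than 1, and between the cerebellum samples 194 did, against 3688 genes between the tissue means. The correlation of the levels across genes, which are not independent replicates, was 0.994 between the GNP samples, 0.995 between the cerebellum samples and 0.911 to 0.914 between the tissues. The precision is limited by 2 samples a tissue. An exact permutation test of 2 samples against 2 cannot give a two-sided p below 0.333, and the calls rest on the spread of each gene over the 3 groups, in which the MBs supply 7 of the 9 residual degrees of freedom. The fit across genes added 0.473 prior degrees of freedom. The median SD of a gene was 0.0952 in GNPs and 0.0977 in cerebellum, against 0.269 in the MBs, over 8874 genes above a log2 level of 5 in at least 2 of the 4 samples. A further 587 genes had means more than 1 apart without a call, and for 575 of them the tissues did not overlap.

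**Figure D1:**
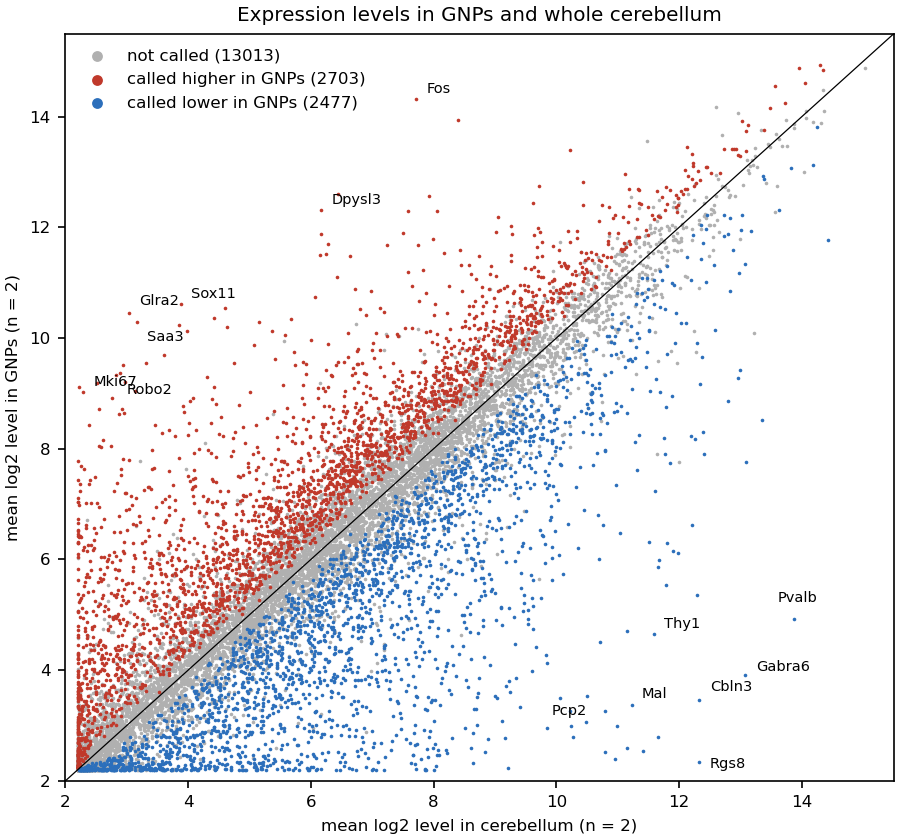
Mean log2 expression level in the 2 GNP samples (vertical axis) against that in the 2 cerebellum samples (horizontal axis) for 18193 genes. Red points are the 2703 genes called higher in GNPs, blue points the 2477 called lower and grey points the rest. The genes named in the plot lie among the 20 highest or 20 lowest differences, and of these Mki67 is near the floor in cerebellum and Rgs8 in GNPs.

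For the Gapdh and actin controls, signal from the 3′ end exceeded that from the 5′ end by 0.15 to 0.23 in GNPs and 0.48 to 0.52 in cerebellum, a measure of RNA quality that moved with tissue and whose part in the results was not tested. In the MBs, which lend most of the spread, the excess was 2.93 in replicate 7 and 0.56 to 0.82 in the others. Without MB replicate 7, 2852 genes were called higher and 2542 lower. Between 42.2% and 42.9% of probe sets lay above a log2 level of 5 in the 4 samples. Xist, the noncoding RNA of the inactive X chromosome, stood at 11.11 and 2.32 in GNPs and 2.23 and 2.47 in cerebellum, and the Y-linked gene Eif2s3y at 2.20 and 6.04 in GNPs and 7.08 and 7.08 in cerebellum, so GNP replicate 1 alone carried the pattern of a female. Sex was thus mixed within the GNPs. Shifting each array to the same median over 6265 genes above a level of 5 in all 12 samples changed the split of calls from 2703 higher and 2477 lower to 2533 and 7352, with the median of all genes at -0.13. Of those 7352 genes, 3870 were near the floor in all 4 samples. The same shift tested on genes above a level of 5 gave 1931 higher and 2270 lower.

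The label of the GNPs was borne out by some markers of granule progenitors and not by others. Of 14 measured markers of granule progenitors, 6 (42.9%) were higher in GNPs, 2 (14.3%) lower and 6 did not pass, against 14.9% higher and 13.6% lower of all genes, with a median difference of 0.22. The 2 lower calls became 1 without GNP replicate 1 or either cerebellum sample. Atoh1, the factor that specifies the lineage, stood at 6.04 and 5.87 in GNPs and 2.81 and 2.70 in cerebellum, and the tissues did not overlap. The difference was 3.19 (SE 0.38, adjusted p = 0.000163 from limma). Barhl1, a homeobox factor that acts downstream of ATOH1 in granule cells, stood at 8.21 and 7.74 in GNPs and 3.75 and 3.07 in cerebellum and was higher by 4.56 (adjusted p = 9.46e-05 from limma). The secreted WNT modulator Sfrp1, expressed in the external granule layer, stood at 7.21 and 7.18 in GNPs and 3.05 and 2.93 in cerebellum, a difference of 4.21. Ccnd2, which encodes the cyclin D2 of dividing granule progenitors, stood at 9.25 and 8.99 in GNPs and 4.00 and 4.85 in cerebellum with a difference of 4.70 (adjusted p = 8.31e-05 from limma).

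Genes of the hedgehog pathway and its targets were called in both directions. Gli1, the transcription factor whose level reads out hedgehog signaling, stood at 2.39 and 2.20 in GNPs and 3.61 and 3.40 in cerebellum, lower in GNPs by a difference of at most -1.21 that lost its call without any 1 of the 4 normal samples or without MB replicate 5 or 8. The same probe set reached 8.65 to 9.91 in the MBs. Ccnd1, the other D cyclin of the pathway, stood at 4.76 and 4.80 in GNPs and 7.62 and 6.99 in cerebellum and was lower by a difference of -2.52 (adjusted p = 5.89e-05 from limma). Ptch1, the hedgehog receptor and itself a target, stood at 6.56 and 6.26 in GNPs and 6.71 and 6.56 in cerebellum, a difference of -0.23 (adjusted p = 1 from limma). Among the co-receptors, Boc stood at 5.69 and 5.70 in GNPs and 5.69 and 5.70 in cerebellum and Cdon at 3.23 and 3.29 in GNPs and 5.55 and 5.39 in cerebellum, of which Cdon was lower in GNPs. Shh, the ligand made by Purkinje cells, was near the floor in both GNP samples and at 4.39 and 4.81 in cerebellum, a difference of at most -2.39. Gpr161, a ciliary receptor that restrains the pathway, was higher by 1.61. The 2 probe sets of each gene had differences of 0 and 3.22 for Gpr161, -4.39 and -0.01 for Cdon and -4.78 and 0 for Shh. Of the 19 measured hedgehog genes, 3 (15.8%) were higher (Gpr161, Kif7 and Sufu) and 4 (21.1%) lower (Shh, Cdon, Gli1 and Gas1), against 14.9% and 13.6% of all genes, and the median difference was -0.14. The 4 lower calls became 2 without cerebellum replicate 1. Kif7 (difference 0.89) lost its call without GNP replicate 2 or either cerebellum sample. The samples are called GNPs here by their label, with Gli1 and Ccnd1 below whole cerebellum.

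The transcription factors of the rhombic lip and granule lineage were higher in GNPs or did not pass. Of 23 measured factors, 11 (47.8%) were higher in GNPs, 0 lower and 12 did not pass, with a median difference of 1.31. Sox11, a factor of newborn neurons, stood at 10.89 and 10.33 in GNPs and 3.81 and 3.95 in cerebellum with no overlap. Its difference of 6.73 (SE 0.23, adjusted p = 1.91e-08 from limma) was the 5th highest of the ranked genes. Insm1, a zinc finger factor of progenitors about to become neurons, stood at 9.69 and 9.41 in GNPs and 3.21 and 3.41 in cerebellum (difference 6.24), and Nhlh1, a basic helix-loop-helix factor of freshly postmitotic granule cells, at 8.24 and 7.87 in GNPs and 3.26 and 2.22 in cerebellum (difference 5.31). Zic1 and Neurod1, which granule cells keep when mature, did not pass. Zic1 stood at 13.95 and 13.65 in GNPs and 13.74 and 14.00 in cerebellum and Neurod1 at 13.83 and 13.68 in GNPs and 13.27 and 13.39 in cerebellum, high in all 4 samples. Pax6 stood at 7.55 and 7.31 in GNPs and 6.12 and 6.12 in cerebellum, above cerebellum in both GNP samples without a call (adjusted p = 0.155 from limma).

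**Figure D2:**
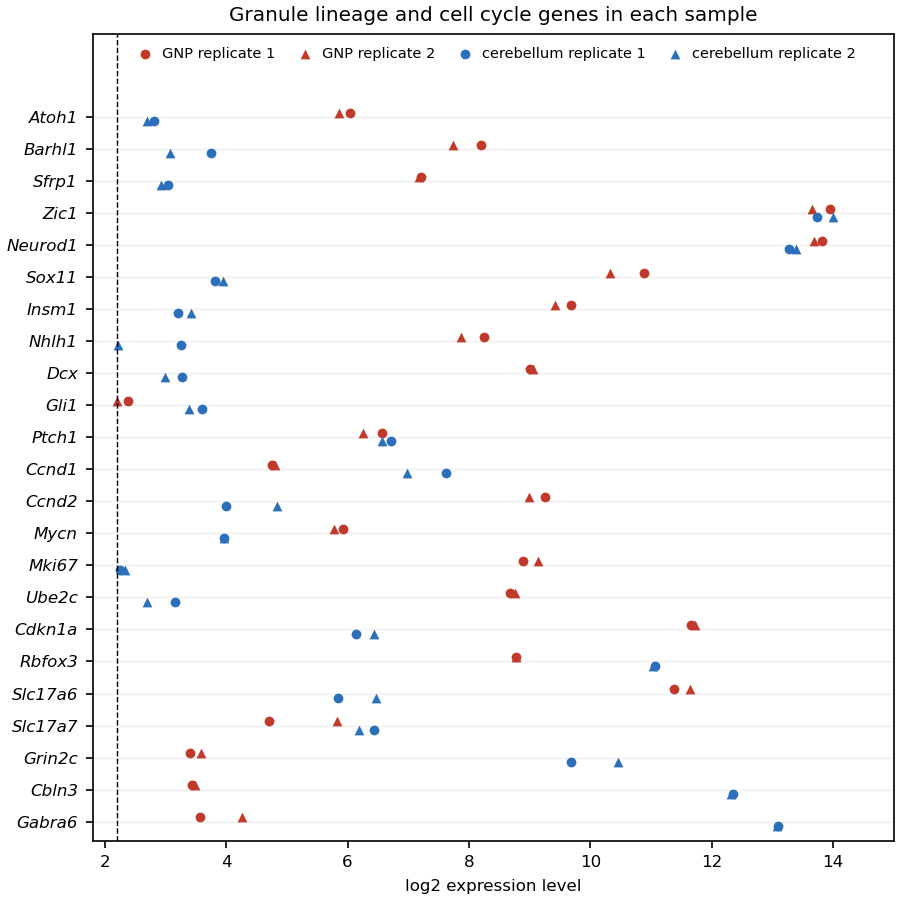
Log2 expression level of genes of the granule lineage and its cell cycle in each GNP sample (red) and each cerebellum sample (blue). The horizontal axis is the log2 level, the dashed line marks the floor, and replicate 1 is a circle and replicate 2 a triangle. Atoh1, Barhl1, Sox11, Dcx, Mki67 and Ccnd2 lie to the right in GNPs, Gli1, Ccnd1, Gabra6 and Cbln3 to the left, and the 4 samples lie close together for Zic1 and Neurod1.

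Genes of cell division were higher in GNPs. Of 57 measured genes of mitosis and the kinetochore, 38 (66.7%) were higher in GNPs, 2 (3.51%) lower and 17 did not pass, against 14.9% higher and 13.6% lower of all genes, with a median difference of 1.42. The mean level exceeded 5 for 17 of the 57 in GNPs and for 5 in cerebellum. With arrays shifted to the same median and only genes above a level of 5 tested, 13 were higher and 1 lower. Mki67, which encodes the Ki-67 antigen of cycling cells, stood at 8.90 and 9.14 in GNPs and 2.25 and 2.33 in cerebellum, where it was near the floor in both samples. The difference was at least 6.73 (SE 0.18, adjusted p = 3.08e-09 from limma). Ube2c, which passes ubiquitin to substrates of the anaphase-promoting complex, stood at 8.68 and 8.76 in GNPs and 3.16 and 2.70 in cerebellum (difference 5.79) and Cdk1, the kinase that starts mitosis, at 7.20 and 7.77 in GNPs and 2.23 and 2.75 in cerebellum (difference 5.0). Ccnb2, a cyclin partner of CDK1, was higher by 3.47. The 2 lower genes were Anln (4.14 and 5.08 in GNPs and 8.0 and 8.11 in cerebellum), which encodes a scaffold of the cleavage furrow that oligodendrocytes also express, and Cdc25b (3.15 and 3.34 in GNPs and 4.39 and 4.59 in cerebellum). The mitotic factor Foxm1 stood at 2.64 and 2.74 in GNPs and 2.77 and 2.70 in cerebellum and Bub1 at 4.13 and 4.19 in GNPs and 3.04 and 2.75 in cerebellum, without a call. The 2 probe sets of Bub1 had differences of -0.05 and 2.59. With 1 of the 4 samples left out, between 32 and 34 genes of the list were higher. Foxm1, Bub1 and Cdc20, shown with its promoter, were named after their values were seen.

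The promoters of mitotic genes often hold a pair of short elements, the CHR element (TTTGAA) bound by the MuvB complex and the CCAAT box bound by NF-Y. RefSeq promoters of GRCm38.p6 were at hand for 48 of the 57 mitotic genes, and the 250 bases before the start were searched on both strands. TTTGAA lay in 35.4% of these genes and in 16% of all 32851 promoters, CCAAT in 72.9% and 33.8%, and both together in 33.3% and 5.55%. A gene with several starts counts once if any of them holds the letters, and counted in that way the shares over all measured genes with a promoter were 14.1% for TTTGAA, 39.4% for CCAAT and 5.09% for both. The 150 bases before the start are shown for Cdk1 (chr10:69352913-69353062, minus strand), Ube2c (chr2:164769779-164769928, plus strand) and Cdc20 (chr4:118437344-118437493, minus strand), because each holds both elements. Cdc20, an activator of the anaphase-promoting complex, stood at 7.29 and 7.61 in GNPs and 4.64 and 4.13 in cerebellum. Capitals mark TTTGAA and CCAAT or their reverse complements.
Cdk1: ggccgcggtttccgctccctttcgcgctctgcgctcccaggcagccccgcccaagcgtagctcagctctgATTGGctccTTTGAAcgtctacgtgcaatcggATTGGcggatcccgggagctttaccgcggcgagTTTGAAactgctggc
Ube2c: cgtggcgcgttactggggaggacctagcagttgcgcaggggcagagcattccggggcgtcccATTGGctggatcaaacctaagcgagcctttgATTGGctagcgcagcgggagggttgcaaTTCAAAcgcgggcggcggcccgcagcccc
Cdc20: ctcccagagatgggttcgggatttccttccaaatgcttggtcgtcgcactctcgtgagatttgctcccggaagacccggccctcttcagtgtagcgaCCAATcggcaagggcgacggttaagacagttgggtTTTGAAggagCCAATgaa
Each of the 3 genes was called higher in GNPs.

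Genes of DNA replication were called in both directions. Of 49 measured genes of replication licensing and the fork, 18 (36.7%) were higher in GNPs, 4 (8.16%) lower and 27 did not pass, and the median difference was 0.48. Mcm6, a subunit of the replicative helicase, stood at 7.78 and 6.89 in GNPs and 3.60 and 4.62 in cerebellum (difference 3.22), while Mcm2, Mcm3 and Mcm4 of the same helicase did not pass, with Mcm2 at 3.71 and 4.60 in GNPs and 4.11 and 4.09 in cerebellum and Mcm4 at 7.86 and 8.09 in GNPs and 7.38 and 7.70 in cerebellum. Gins1, a helicase cofactor, was higher by 3.37. Rpa1, which coats single strands, and the primase gene Prim1 were lower, by differences of -0.58 and -0.87. Of 29 genes of nucleotide synthesis and one-carbon metabolism, 5 (17.2%) were higher and 2 (6.9%) lower. The 5 higher calls became 3 without either cerebellum sample and 2 without GNP replicate 1, and the 2 lower calls became 1 without GNP replicate 2 and 0 without cerebellum replicate 2. Rrm2, the S-phase subunit of ribonucleotide reductase, stood at 6.56 and 6.45 in GNPs and 2.92 and 2.85 in cerebellum (difference 3.62), whereas its partner Rrm1 stood at 6.49 and 6.40 in GNPs and 5.52 and 5.51 in cerebellum with an adjusted p of 0.163 from limma. E2F letters (TTTCCCGC, TTTGGCGC, TTTCGCGC, TTCCCGCC or TTGGCGGG, which overlap one another) lay before the start of 12 of the 39 replication genes with a promoter, 30.8%, against 3.6% of all promoters and 6.2% of measured genes. In Mcm6 (chr1:128359706-128359855, minus strand) they occurred at 2 places, of which one holds overlapping matches, shown in capitals.
Mcm6: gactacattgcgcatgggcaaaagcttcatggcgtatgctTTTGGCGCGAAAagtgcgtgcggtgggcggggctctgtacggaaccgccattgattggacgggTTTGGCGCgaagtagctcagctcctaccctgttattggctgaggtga
The 4 lower calls became 2 without either GNP sample or cerebellum replicate 2.

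Regulators of G1 that were higher included drivers and brakes of the cycle. Of 30 measured G1 regulators, 15 (50%) were higher in GNPs, 2 (6.67%) lower and 13 did not pass, and the median difference was 0.78. Among the drivers, Cdk4 stood at 9.49 and 9.49 in GNPs and 7.19 and 7.07 in cerebellum and Ccna2 at 7.34 and 7.27 in GNPs and 3.37 and 3.33 in cerebellum, both higher, and Ccne2 was lower by a difference of -1.95. Among the brakes, Cdkn1a, which encodes the CDK inhibitor p21 and is a target of p53, stood at 11.66 and 11.73 in GNPs and 6.14 and 6.43 in cerebellum. This difference of 5.41 (SE 0.81, adjusted p = 0.000692 from limma) was the highest of the group. Cdkn2b, which encodes the CDK4/6 inhibitor p15, stood at 7.15 and 7.67 in GNPs and 3.96 and 4.11 in cerebellum, and Cdkn1c and Cdkn1b were also called higher, by 3.13 and 1.16. Cdkn1c lost its call without GNP replicate 1 or cerebellum replicate 1. Cdk4, Ccna2, Cdkn2b, Cdkn1c and Cdkn1b were named after their values were seen.

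Of 23 measured p53 targets, 10 (43.5%) were higher in GNPs, 2 (8.7%) lower and 11 did not pass, against 14.9% higher and 13.6% lower of all genes. The 2 lower calls became 1 without GNP replicate 2 or either cerebellum sample. Pmaip1, which encodes the BH3-only protein NOXA, stood at 6.98 and 6.84 in GNPs and 3.02 and 3.06 in cerebellum (difference 3.87). Ccng1 stood at 9.46 and 9.26 in GNPs and 8.35 and 8.61 in cerebellum, and its call was lost without any 1 of the 4 normal samples. Mdm2, the ubiquitin ligase that p53 induces against itself, stood at 5.56 and 5.50 in GNPs and 5.27 and 5.33 in cerebellum, without a call (adjusted p = 0.704 from limma). Bbc3, another BH3-only gene of the list, stood at 5.32 and 5.29 in GNPs and 5.29 and 5.29 in cerebellum and was named after its values were seen. The 2 lower genes were Phlda3 (difference -1.49) and Zmat3 (-0.61), and Zmat3 lost its call without GNP replicate 2 or either cerebellum sample. Neither Phlda3 nor Zmat3 kept its call with the 4 normal samples fitted alone. Of 22 measured BCL2 family members and caspases, 5 (22.7%) were higher and 3 (13.6%) lower. Bid, a BH3-only gene, was higher by 3.53 and Bcl2l11, which encodes BIM, by 2.27, beside the survival gene Mcl1, higher by 1.42. Bcl2l2 and Birc2, both survival genes, were lower by differences of -1.0 and -0.57. The call of Birc2 was lost without GNP replicate 1 or cerebellum replicate 2. The 3 lower calls became 1 without GNP replicate 1 or cerebellum replicate 2.

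Myc, a driver of growth and ribosome synthesis, stood at 6.95 and 7.02 in GNPs and 3.15 and 3.02 in cerebellum and Mycn, its relative that hedgehog signaling induces in granule progenitors, at 5.93 and 5.78 in GNPs and 3.96 and 3.97 in cerebellum. The differences were 3.89 (SE 1.18, adjusted p = 0.0333 from limma) and 1.89 (SE 0.51, adjusted p = 0.0187 from limma). Both calls were lost without any 1 of the 4 normal samples, where a tissue is left with 1 sample. The differences then stayed between 3.83 and 3.96 for Myc and between 1.82 and 1.97 for Mycn. In the MBs, whose spread enters the SE, Myc ranged from 7.34 to 11.47 and Mycn from 7.40 to 9.46. Of 3 probe sets of Mycn the lowest differed by 0.10 and the highest by 3.05. In all, 5 of 13 family members were higher and 1, Max, was lower. The 5 higher calls became 3 without any 1 of the 4 samples, and the 1 lower call became 0 without GNP replicate 1 or cerebellum replicate 1. Of 34 measured genes of ribosome biogenesis, 10 (29.4%) were higher in GNPs, 0 lower and 24 did not pass, and the median difference was 0.48. Fbl, the methyltransferase fibrillarin of the nucleolus, was higher by 1.72, Eif4ebp1 by 1.87, and Npm1 stood at 12.37 and 12.38 in GNPs and 11.84 and 11.97 in cerebellum without a call. The 2 probe sets of Eif4ebp1 had differences of 0.02 and 3.72. The 10 higher calls became 6 without GNP replicate 1 or cerebellum replicate 2 and 4 without GNP replicate 2. Fbl lost its call without either GNP sample or cerebellum replicate 1 and Eif4ebp1 without GNP replicate 2.

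Factors of double-strand break repair, the subject of the study, had calls in both directions. The study reported that levels of its repair factors did not differ significantly between these tissues and showed them pooled. It also described Lig3 as not detected in healthy cerebellum. That figure used unpaired t-tests, and gene values there averaged highly specific probes, so the calls here rest on another test and gene summary. Of 10 measured cNHEJ factors 1 (10%) was higher, 1 (10%) lower and 8 did not pass, against 14.9% higher and 13.6% lower of all genes. Lig4, the ligase of the pathway, stood at 8.07 and 7.58 in GNPs and 6.96 and 6.99 in cerebellum, a difference of 0.85 (SE 0.23, adjusted p = 0.0217 from limma) that lost its call without GNP replicate 1 or either cerebellum sample. Xrcc4, the partner of Lig4 and the gene deleted in the tumors, stood at 3.57 and 4.19 in GNPs and 4.25 and 4.34 in cerebellum, below a level of 5 in all 4 samples, with a difference of -0.41 (adjusted p = 0.503 from limma). Prkdc, the DNA-dependent kinase, was lower at 5.83 and 6.11 in GNPs and 7.85 and 7.67 in cerebellum (difference -1.79). Nhej1 was at the floor in all 4 samples. Of 27 measured HR factors 3 (11.1%) were higher and 2 (7.41%) lower. Brca1 stood at 3.29 and 3.55 in GNPs and 3.14 and 2.85 in cerebellum and Brca2 at 5.73 and 5.32 in GNPs and 5.04 and 5.28 in cerebellum, without a call for either (adjusted p = 0.662 and 0.516 from limma). Of 4 probe sets of Brca1 the lowest differed by -0.20 and the highest by 1.72. The nuclease scaffold gene Slx4 was higher by 0.97. The nuclease gene Mus81 was lower at 6.55 and 6.21 in GNPs and 8.49 and 8.47 in cerebellum. Of 10 measured alt-EJ factors 3 (30%) were higher and 1 (10%) lower. Lig1, the ligase of replication and of this route, stood at 8.05 and 8.05 in GNPs and 6.58 and 6.52 in cerebellum (difference 1.5, adjusted p = 0.00463 from limma), Lig3 at 4.82 and 4.90 in GNPs and 4.11 and 4.40 in cerebellum (difference 0.61) and Parp1 at 7.62 and 7.27 in GNPs and 7.83 and 7.57 in cerebellum (difference -0.25, adjusted p = 0.555 from limma). Lig3 lost its call without either GNP sample or cerebellum replicate 1. Parp2 was lower by a difference of -0.64 and lost its call without any 1 of the 4 normal samples. The 1 lower call became 0 without GNP replicate 2 or either cerebellum sample.

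Of 26 measured checkpoint genes, 2 (7.69%) were higher in GNPs, 5 (19.2%) lower and 19 did not pass. The shares over all genes were 14.9% higher and 13.6% lower. The kinase genes Atm, Atr and Chek1 did not pass. Atm stood at 6.53 and 5.76 in GNPs and 6.88 and 6.79 in cerebellum and Atr at 5.79 and 5.46 in GNPs and 6.04 and 6.20 in cerebellum. Chek1 stood at 2.70 and 3.01 in GNPs and 2.59 and 2.56 in cerebellum. H2ax, the histone variant phosphorylated at breaks, was higher by 1.35 and its partner Mdc1 by 0.82. H2ax lost its call without GNP replicate 2 or cerebellum replicate 1 and Mdc1 without any 1 of the 4 normal samples. Wee1, which holds CDK1 inactive, was lower by a difference of -2.13 and lost its call without GNP replicate 1 or cerebellum replicate 2. The 2 higher calls became 1 without GNP replicate 1 or cerebellum replicate 2 and 0 without GNP replicate 2 or cerebellum replicate 1, and the 5 lower calls became 3 without GNP replicate 1 and 2 without GNP replicate 2 or either cerebellum sample. Of 21 genes of mismatch and excision repair, 6 (28.6%) were higher and 2 (9.52%) lower. Apex1, the endonuclease of base excision repair, was higher by 1.71 and Ddb2, a sensor of ultraviolet damage, lower by a difference of -2.61. The 6 higher calls became 3 without GNP replicate 1, and the 2 lower calls became 1 without GNP replicate 2 or either cerebellum sample.

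Of 30 measured genes of histones, chromatin assembly and DNA methylation, 14 (46.7%) were higher in GNPs, 2 (6.67%) lower and 14 did not pass. Hmgb3, a chromatin protein of stem and progenitor cells, stood at 11.80 and 11.59 in GNPs and 7.08 and 7.40 in cerebellum. Its difference was 4.45 (SE 0.25, adjusted p = 7.54e-07 from limma). Ezh2, the Polycomb methyltransferase of dividing cells, stood at 9.22 and 9.01 in GNPs and 5.86 and 6.71 in cerebellum, and its relative Ezh1, which prevails in resting cells, at 3.85 and 4.00 in GNPs and 4.92 and 5.06 in cerebellum. They differed in opposite directions, by 2.84 and -1.07. The 4 probe sets of Ezh1 had differences from -2.18 to -0.0009. Cbx7, another Polycomb subunit, was lower by a difference of at most -2.25, the mean of 2 probe sets at -4.49 and 0. The 14 higher calls became 9 without GNP replicate 2 and 8 without cerebellum replicate 1. Among chromatin and RNA factors that change form from progenitor to neuron, 14 of 34 were higher and 3 lower. The 14 higher calls became 9 without GNP replicate 1 or cerebellum replicate 1. Rcor2, a partner of the demethylase KDM1A, was higher by 2.93, and Actl6a, the BAF subunit of progenitors, by 0.68, while Actl6b, its neuronal counterpart, stood at 6.38 and 6.20 in GNPs and 6.19 and 5.66 in cerebellum without a call. Rbfox3, which encodes the NeuN antigen of mature neurons, was lower at 8.78 and 8.78 in GNPs and 11.07 and 11.04 in cerebellum, a difference of -2.27. Actl6a lost its call without GNP replicate 1 or cerebellum replicate 1.

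Genes of young, migrating neurons were among the highest differences. Dcx, which encodes the microtubule protein doublecortin of migrating neurons, stood at 9.01 and 9.06 in GNPs and 3.27 and 3.0 in cerebellum, with no overlap and a difference of 5.90 (SE 0.13, adjusted p = 6.56e-10 from limma). Robo2, a receptor for the guidance cue SLIT, stood at 9.49 and 9.16 in GNPs and 2.86 and 2.79 in cerebellum (difference 6.50) and Dpysl3, a collapsin response protein of growing axons, at 12.42 and 12.20 in GNPs and 6.23 and 6.10 in cerebellum (difference 6.14). Igfbpl1 and Cd24a, genes of immature neurons, were higher by 6.68 and 6.17. Of 44 measured genes of migration and guidance 12 (27.3%) were higher and 6 (13.6%) lower. Cntn2, the axonal adhesion protein TAG-1 of the premigratory zone, was higher by 0.79 (its call was lost without GNP replicate 2), and Cntn1, of mature axons, stood at 10.27 and 10.05 in GNPs and 10.98 and 11.07 in cerebellum. Of 35 cytoskeletal genes 16 (45.7%) were higher and 3 (8.57%) lower. The 3 lower calls became 1 without GNP replicate 2. Marcksl1 was higher by 4.39, whereas Nefh, the heavy neurofilament of large mature axons, stood at 2.73 and 3.27 in GNPs and 10.12 and 10.34 in cerebellum, a difference of -7.24. Ebf3, a factor of newborn neurons, was higher by 4.81, and in the same list of nuclear factor I, SOX and OLIG factors 11 of 28 were higher and 4 lower. The 4 lower calls became 2 without GNP replicate 1 or either cerebellum sample. Nfia and Nfib, which promote granule cell maturation, were higher by 1.07 and 1.56. Of the 18 markers of differentiating granule neurons 10 were higher and 2 lower, the latter being Rbfox3 and Tiam1 (3.82 and 4.13 in GNPs and 7.44 and 7.11 in cerebellum).

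Markers of mature granule neurons were lower in GNPs. Of 14 measured markers of mature granule neurons, 0 were higher in GNPs, 10 (71.4%) lower and 4 did not pass. Gabra6, the GABA-A receptor subunit particular to mature granule neurons in this tissue, stood at 3.57 and 4.26 in GNPs and 13.09 and 13.07 in cerebellum. Its difference was -9.17 (SE 1.68, adjusted p = 0.00248 from limma), the 2nd lowest of the ranked genes. Cbln3, a secreted synaptic organizer of granule neurons, stood at 3.45 and 3.49 in GNPs and 12.35 and 12.31 in cerebellum (difference -8.86), and Grin2c, the NMDA receptor subunit that granule neurons gain on maturing, at 3.41 and 3.58 in GNPs and 9.67 and 10.45 in cerebellum (difference -6.57). In bulk samples, fewer cells of a type and less RNA per cell cannot be told apart. No member of the group was higher, and Snap25 stood at 10.23 and 10.35 in GNPs and 11.26 and 11.44 in cerebellum without a call.

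Subunits of receptors and channels were mostly lower or without a call, with some subunits of immature neurons higher. Of 14 GABA-A receptor and chloride transport genes 2 (14.3%) were higher and 6 (42.9%) lower. Gabra5, a subunit of immature neurons, stood at 7.48 and 7.89 in GNPs and 2.25 and 2.25 in cerebellum, higher by at least 5.43, and Gabra4 was higher by 1.85. Slc12a5, the chloride exporter KCC2 of mature neurons, stood at 4.68 and 4.27 in GNPs and 9.14 and 9.51 in cerebellum, a difference of -4.84. Of 31 genes of glutamate receptors and their scaffolds 2 (6.45%) were higher and 15 (48.4%) lower. The higher ones were Grin2b (5.01 and 4.61 in GNPs and 3.01 and 2.98 in cerebellum), the NMDA subunit of young neurons, and Grik2 (9.15 and 8.85 in GNPs and 7.72 and 7.81 in cerebellum), but Grik2 lost its call without any 1 of the 4 normal samples, and Grin2b without any 1 of the 4 normal samples or without MB replicate 4 or 5. Gria1, an AMPA receptor subunit, was lower by a difference of -4.70, with its call lost without any 1 of the 4 normal samples or without MB replicate 1, 3, 6 or 8. Among 4 probe sets of Grin2b the lowest differed by 0.02 and the highest by 4.10. Of 38 ion channel genes 4 (10.5%) were higher and 22 (57.9%) lower, and the median difference was -1.33. Scn3b stood at 7.34 and 6.90 in GNPs and 3.13 and 3.17 in cerebellum and Cacna1b, an N-type calcium channel, was higher by 1.45. Scn1a (3.29 and 2.98 in GNPs and 7.50 and 7.44 in cerebellum), Scn2a (5.93 and 6.0 in GNPs and 9.33 and 9.33 in cerebellum), Cacna1g (-5.35 in difference) and Kcnt1 (-4.92 in difference), channels of mature neurons, were lower. The 4 higher calls became 2 without any 1 of the 4 samples.

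Of 37 genes of synaptic vesicles and release 2 (5.41%) were higher and 12 (32.4%) lower. The vesicular glutamate transporters went in opposite directions. Slc17a6 (VGLUT2), used by young granule neurons, stood at 11.38 and 11.64 in GNPs and 5.84 and 6.46 in cerebellum, and Slc17a7 (VGLUT1), used by mature ones, at 4.70 and 5.83 in GNPs and 6.43 and 6.19 in cerebellum. The differences were 5.36 (adjusted p = 3.69e-05 from limma) and -1.04 (adjusted p = 0.0206 from limma). Slc17a7 lost its call without GNP replicate 1 or cerebellum replicate 1 and was named after its values were seen. Stx1a, a syntaxin of the release machinery, was the other gene called higher, at 7.44 and 7.62 in GNPs and 2.80 and 3.02 in cerebellum. Unc13c and Syt2 were lower by differences of -6.39 and -4.92, while the general vesicle gene Syp stood at 10.41 and 10.70 in GNPs and 10.61 and 10.54 in cerebellum without a call. Syt1, the calcium sensor of release, stood at 9.95 and 9.97 in GNPs and 8.94 and 9.12 in cerebellum, also without a call.

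**Figure D3:**
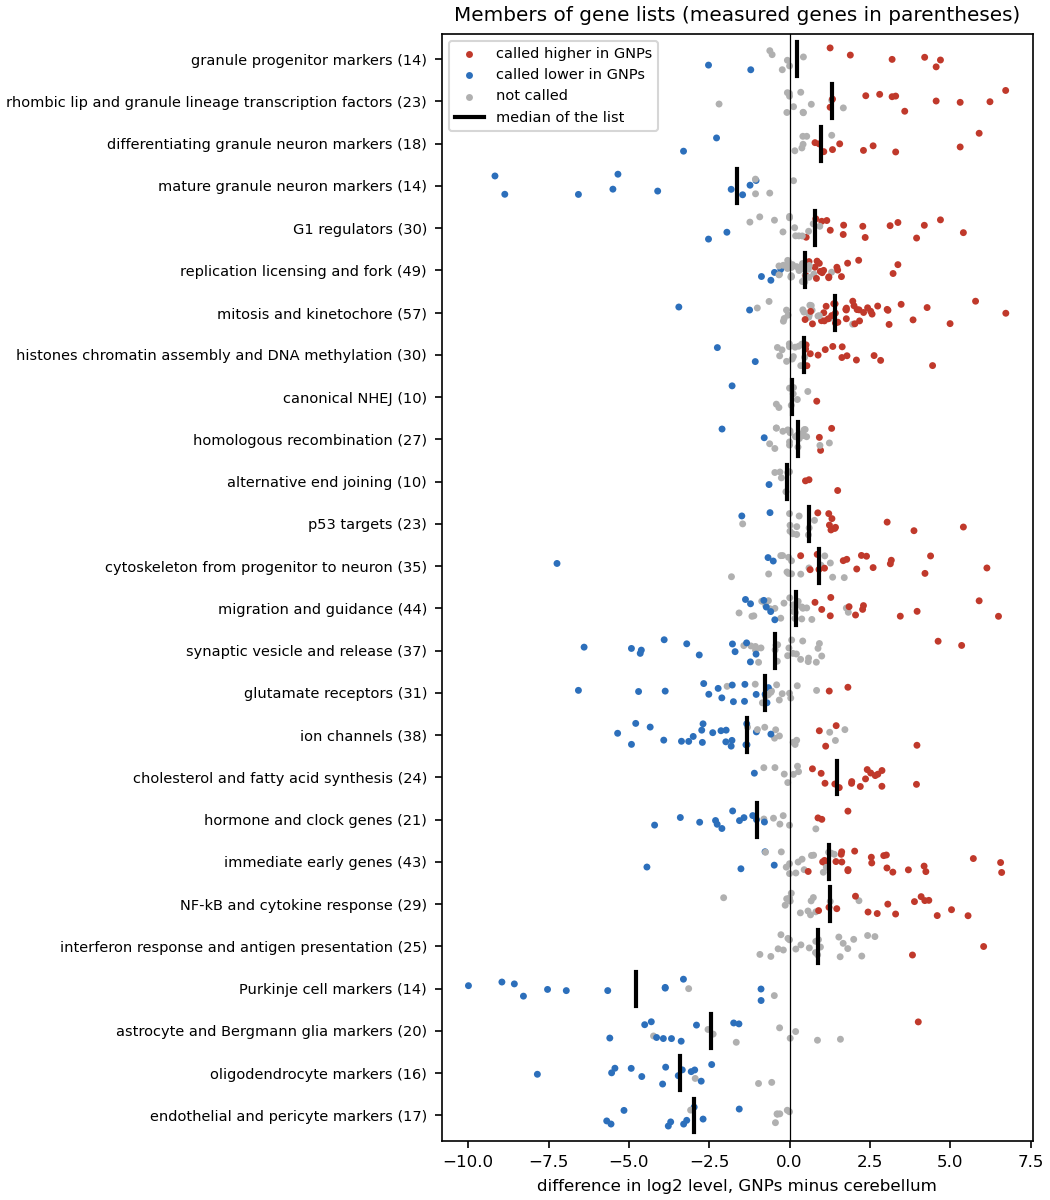
Difference in log2 expression level, GNPs minus cerebellum, of every measured member of 26 gene lists. Each point is a gene, red where called higher in GNPs, blue where called lower and grey where not called, the black bar is the median of the list and the vertical line marks 0, the median over all genes. Mitosis, cholesterol synthesis and immediate early genes lie mostly to the right, and Purkinje cell, oligodendrocyte and mature granule neuron markers mostly to the left.

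Most markers of Purkinje cells, inhibitory interneurons and blood vessels were lower in GNPs. Of 14 measured Purkinje cell markers, 0 were higher in GNPs, 12 (85.7%) lower and 2 did not pass, with a median difference of -4.76. Pcp2 stood at 3.44 and 3.10 in GNPs and 10.78 and 10.82 in cerebellum, a difference of -7.53 (SE 0.87, adjusted p = 0.000131 from limma). Rgs8, with a difference of at most -9.99, was the lowest of the ranked genes. The difference of Pvalb, the calcium buffer parvalbumin of Purkinje cells and molecular layer interneurons, was -8.95. Of 13 measured markers of inhibitory interneurons, 1 (7.69%) was higher in GNPs, 9 (69.2%) lower and 3 did not pass. The 1 higher call became 2 without GNP replicate 1. Npy was lower by a difference of at most -4.32 and Gad2, an enzyme of GABA synthesis, stood at 4.32 and 4.79 in GNPs and 7.55 and 7.46 in cerebellum. Gad1, its partner enzyme, stood at 10.11 and 10.14 in GNPs and 12.22 and 12.28 in cerebellum without a call (adjusted p = 0.282 from limma). It ranged from 2.53 to 7.52 in the MBs, whose spread enters the SE. Ptf1a, the factor that specifies GABAergic neurons, was the gene called higher, at 4.31 and 3.20 in GNPs and 2.20 and 2.20 in cerebellum. Its call was lost with the 4 normal samples fitted alone. Of 17 measured markers of endothelium and pericytes, 0 were higher in GNPs, 10 (58.8%) lower and 7 did not pass. Cldn5 of the tight junctions stood at 2.83 and 3.19 in GNPs and 8.62 and 8.78 in cerebellum and Rgs5 of pericytes was lower by a difference of -5.56. The 10 lower calls became 6 without GNP replicate 2. Pecam1 and Cdh5, defining genes of the endothelium, were near the floor in GNPs and had no call. In cerebellum Pecam1 stood at 2.91 and 2.25 and Cdh5 at 2.52 and 2.60.

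Oligodendrocyte genes were lower in both GNP samples, but less so in replicate 2. Of 16 measured oligodendrocyte markers, 0 were higher in GNPs, 13 (81.2%) lower and 3 did not pass. Mal, a myelin proteolipid, stood at 2.60 and 4.16 in GNPs and 11.19 and 11.27 in cerebellum (difference -7.85), Mog at 2.41 and 2.95 in GNPs and 7.56 and 7.66 in cerebellum (difference -4.93) and Mag at 3.94 and 6.35 in GNPs and 9.18 and 9.01 in cerebellum (difference -3.95). Mbp stood at 7.27 and 8.56 in GNPs and 11.77 and 11.76 in cerebellum and lost its call without GNP replicate 1 or either cerebellum sample. Mag lost its call with the 4 normal samples fitted alone. Across the 16 markers the median of GNP replicate 2 minus replicate 1 was 1.07, with 15 markers higher in replicate 2, while the same median was -0.01 between the cerebellum samples and 0 over all genes between the GNP samples. Of 18 genes of myelin and lipid synthesis, which share 9 members with those markers, 0 were higher and 13 lower. Among precursor markers, Pdgfra stood at 6.30 and 6.61 in GNPs and 4.83 and 4.94 in cerebellum, called higher (its call was lost without any 1 of the 4 normal samples or without MB replicate 2, 3 or 6) and Gpr17 at 7.66 and 8.99 in GNPs and 7.75 and 7.76 in cerebellum.

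Astrocyte and Bergmann glia genes were lower or did not pass, with the exception of Gfap. Of 20 measured markers of astrocytes and Bergmann glia, 1 (5%) was higher in GNPs, 10 (50%) lower and 9 did not pass. Fitting the 4 normal samples alone gave 3 higher and 14 lower. Gdf10, a marker of Bergmann glia, was lower at 6.58 and 6.67 in GNPs and 12.41 and 12.02 in cerebellum, with its call lost without either GNP sample or cerebellum replicate 1, and S100b at 7.31 and 8.49 in GNPs and 12.50 and 12.31 in cerebellum, with its call lost without GNP replicate 1 or cerebellum replicate 1. Gfap, the intermediate filament of reactive astrocytes, went the other way, at 9.08 and 8.96 in GNPs and 5.0 and 5.03 in cerebellum. Its difference was 4.01 (SE 0.72, adjusted p = 0.00219 from limma), but on the probe set of highest signal, of those with an _s_at or _x_at suffix too, it was 2.80 and not called (adjusted p = 0.141 from limma). Aqp4, the water channel of astrocyte endfeet, stood at 9.24 and 9.16 in GNPs and 9.07 and 8.94 in cerebellum and did not pass. The 10 lower calls became 6 without GNP replicate 2 and 5 without GNP replicate 1 or cerebellum replicate 1. Of 13 neural stem and early glial genes 1, Cd44 (6.39 and 6.50 in GNPs and 3.44 and 3.61 in cerebellum), was higher and 2 lower. The 4 probe sets of Cd44 had differences from 0 to 4.78. With the 4 normal samples fitted alone, 5 genes of this list were higher and 3 lower. The 2 lower calls became 1 without GNP replicate 2 or cerebellum replicate 1. Nes, the intermediate filament of neural stem cells, stood at 4.18 and 4.22 in GNPs and 3.53 and 3.66 in cerebellum without a call. Sox2 stood at 8.97 and 8.44 in GNPs and 9.53 and 9.20 in cerebellum and Vim at 12.65 and 12.47 in GNPs and 11.23 and 11.21 in cerebellum, also without a call.

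**Figure D4:**
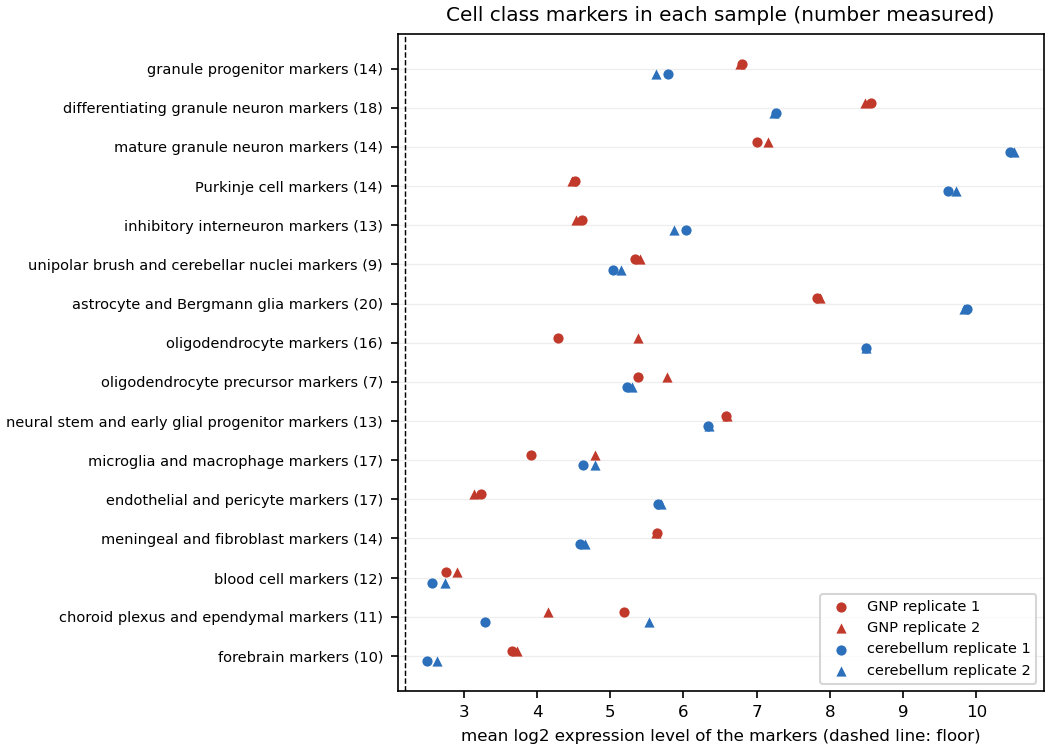
Mean log2 expression level over the measured markers of each of 16 cell classes in each of the 4 samples. Red symbols are GNPs, blue symbols cerebellum, circles replicate 1 and triangles replicate 2. Purkinje cell, oligodendrocyte, astrocyte and endothelial markers stand lower in both GNP samples, and the GNP samples stand apart from each other for oligodendrocyte, microglia and choroid plexus markers.

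Microglia and macrophage genes were called in both directions. Of 17 measured markers of microglia and macrophages, 3 (17.6%) were higher in GNPs, 5 (29.4%) lower and 9 did not pass. P2ry12, a gene of resting microglia, stood at 2.20 and 2.55 in GNPs and 6.18 and 6.26 in cerebellum and C1qa, of the complement, at 2.82 and 4.60 in GNPs and 6.32 and 7.13 in cerebellum, both lower. Cd14, a co-receptor for bacterial lipid, stood at 5.82 and 7.31 in GNPs and 2.35 and 2.59 in cerebellum and Lyz2, the lysozyme of myeloid cells, at 9.56 and 10.55 in GNPs and 5.35 and 5.82 in cerebellum, both higher. The latter differences were 4.10 and 4.47. The 5 lower calls became 2 without either cerebellum sample and 0 without GNP replicate 1. P2ry12 lost its call without any 1 of the 4 normal samples and C1qa without GNP replicate 1 or cerebellum replicate 2. With 1 normal sample left out, the difference ran from -4.02 to -3.67 for P2ry12 and from -3.90 to -2.12 for C1qa. The mean level over the 17 markers was 3.92 and 4.79 in GNPs and 4.63 and 4.79 in cerebellum. GNP replicate 2 exceeded replicate 1 at 16 of the 17 markers, with a median of 0.96.

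Of 29 measured genes of the NF-kB and cytokine response, 15 (51.7%) were higher in GNPs, 0 lower and 14 did not pass, with a median difference of 1.27. Cxcl1, which attracts neutrophils, stood at 7.91 and 8.43 in GNPs and 2.39 and 2.84 in cerebellum. The tissues did not overlap, and the difference was 5.56 (SE 0.16, adjusted p = 5.68e-09 from limma). Ccl3, a chemokine of activated microglia, stood at 6.72 and 8.15 in GNPs and 2.37 and 2.43 in cerebellum (difference at least 5.04), and Lcn2, an acute-phase gene of reactive glia, at 6.96 and 8.36 in GNPs and 3.59 and 3.30 in cerebellum (difference 4.21). Saa3, another acute-phase gene, had the 2nd highest difference of the ranked genes, 7.13. Nfkbia, the feedback inhibitor of NF-kB, stood at 7.66 and 8.08 in GNPs and 7.23 and 7.36 in cerebellum and Tnfaip3 at 2.76 and 2.89 in GNPs and 3.0 and 2.92 in cerebellum, without a call. Replicate 2 exceeded replicate 1 here too, at 26 of 29 genes with a median of 0.64. The part of microglia in these values was not tested.

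Interferon genes stood higher in GNP replicate 2 than in replicate 1. Of 25 measured genes of the interferon response and antigen presentation, 2 (8%) were higher in GNPs, 0 lower and 23 did not pass, while replicate 2 exceeded replicate 1 at 24 of 25 genes, by a median of 0.93. Ifit1 stood at 4.29 and 6.13 in GNPs and 2.57 and 2.54 in cerebellum and Ifit3 at 5.57 and 7.52 in GNPs and 5.01 and 4.74 in cerebellum, without a call. The 2 called genes were Irf9 (7.26 and 8.59 in GNPs and 4.03 and 4.17 in cerebellum), a subunit of the interferon-activated factor, and Usp18 (7.21 and 9.65 in GNPs and 2.58 and 2.20 in cerebellum), its feedback inhibitor. Usp18 lost its call without GNP replicate 2. The 2 GNP samples also differed in the Xist and Eif2s3y levels given above, and sex, animal and preparation cannot be told apart between them.

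Many immediate early genes, which respond within minutes to activity, growth factors or handling, were higher in GNPs. Of 43 measured immediate early genes, 23 (53.5%) were higher in GNPs, 4 (9.3%) lower and 16 did not pass, with a median difference of 1.22. Fos stood at 14.27 and 14.37 in GNPs and 7.56 and 7.88 in cerebellum with no overlap, a difference of 6.60 (SE 1.15, adjusted p = 0.00185 from limma). Npas4, a factor induced by neuronal activity, stood at 9.48 and 9.54 in GNPs and 2.97 and 2.92 in cerebellum (difference 6.57), and Dusp4, a phosphatase that ends ERK signaling, at 12.06 and 11.72 in GNPs and 6.18 and 6.16 in cerebellum (difference 5.72). Egr1 and Arc, which respond to the same stimuli, were lower. Egr1 stood at 4.94 and 5.67 in GNPs and 9.78 and 9.71 in cerebellum and lost its call without GNP replicate 1 or either cerebellum sample, and Arc stood at 2.20 and 2.20 in GNPs and 3.58 and 3.85 in cerebellum, a difference of at most -1.51. Of the close relatives of Fos, Fosl1 was at the floor in all 4 samples and Fosb at 2.20 and 2.60 in GNPs and 2.20 and 2.20 in cerebellum. The 4 lower calls became 2 without cerebellum replicate 2. CREB-type letters (TGACGTCA or TGACGCA) lay before the start of 6 of the 32 genes with a promoter, 18.8% against 3.23% of all promoters and 5.17% of measured genes, and a CArG box (the site of serum response factor) before 3 of 32, 9.38% against 1.47% and 1.43%. Of the 19 such genes called higher, 4 held CREB-type letters and 1 a CArG box. In the 150 bases before the start, Fos and Npas4 held neither. Nr4a1 (chr15:101266696-101266845, plus strand), an orphan nuclear receptor gene at 9.40 and 9.74 in GNPs and 6.46 and 6.62 in cerebellum, is shown with its CREB-type letters in capitals, as TGCGTCA, the reverse complement of TGACGCA.
Nr4a1: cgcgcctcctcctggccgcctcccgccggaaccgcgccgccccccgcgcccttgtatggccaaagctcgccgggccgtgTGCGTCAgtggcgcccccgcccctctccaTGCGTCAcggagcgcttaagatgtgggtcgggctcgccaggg
Heat shock and endoplasmic reticulum stress genes gave 3 higher and 1 lower of 26, with a median difference of -0.07. Hspa1a stood at 4.86 and 3.43 in GNPs and 4.26 and 4.33 in cerebellum and Hspa1b at 6.90 and 7.03 in GNPs and 7.16 and 7.33 in cerebellum, without a call. The 3 higher calls became 1 without cerebellum replicate 1, and the 1 lower call became 0 without any 1 of the 4 samples. Dusp4 and Nr4a1 were named after their values were seen.

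Cholesterol synthesis genes were higher in GNPs. Of 24 measured genes of cholesterol and fatty acid synthesis, 16 (66.7%) were higher in GNPs, 1 (4.17%) lower and 7 did not pass, with a median difference of 1.48. Cyp51, the lanosterol demethylase, stood at 10.00 and 9.92 in GNPs and 5.95 and 6.07 in cerebellum, a difference of 3.95 (SE 0.18, adjusted p = 1.63e-07 from limma). Hmgcs1, which makes the precursor of mevalonate, was higher by 2.75, and the later enzymes Mvk and Mvd by 2.20 and 2.88. Srebf2, the factor that switches on the pathway when sterols are low, stood at 7.61 and 7.74 in GNPs and 5.46 and 4.83 in cerebellum, higher by 2.53. The gene called lower was Cyp46a1, which clears cholesterol from neurons, by a difference of -1.09. Cyp46a1 lost its call with the 4 normal samples fitted alone. With 1 of the 4 samples left out, between 13 and 14 genes of the list were higher. CCAAT lay before the start of 16 of the 19 genes with a promoter, 84.2% against 33.8% of all promoters and 39.4% of measured genes. The sterol element TCACNCCAC, a motif chosen after the values were seen, lay in 1.05% of all promoters and in 1 of the 19 genes, Hmgcs1 (chr13:119690201-119690350, plus strand), shown with both elements in capitals.
Hmgcs1: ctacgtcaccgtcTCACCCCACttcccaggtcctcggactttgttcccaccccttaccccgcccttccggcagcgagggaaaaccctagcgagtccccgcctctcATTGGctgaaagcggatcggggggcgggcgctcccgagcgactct
Srebf2 was named after its values were seen.

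Of 33 measured genes of glycolysis and mitochondria, 4 (12.1%) were higher in GNPs, 11 (33.3%) lower and 18 did not pass. Ckmt1, the mitochondrial creatine kinase, stood at 4.13 and 4.11 in GNPs and 10.01 and 9.69 in cerebellum, a difference of -5.73, and Eno2, the neuronal enolase, at 7.81 and 8.54 in GNPs and 12.54 and 11.99 in cerebellum, with its call lost without any 1 of the 4 normal samples. Pgd, an enzyme of the pentose phosphate route, was higher by 1.76. Hk1 and Hk2, which start glycolysis, had no call. Hk1 stood at 9.09 and 9.00 in GNPs and 8.97 and 8.80 in cerebellum and Hk2 at 7.76 and 8.04 in GNPs and 6.74 and 7.19 in cerebellum.

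Hormone-responsive and clock genes were mostly lower in GNPs. Of 21 measured hormone and clock genes, 3 (14.3%) were higher in GNPs, 12 (57.1%) lower and 6 did not pass, with a median difference of -1.03. Dbp, an output gene of the clock, stood at 3.76 and 4.21 in GNPs and 8.65 and 7.72 in cerebellum (difference -4.20). Klf9, induced by thyroid hormone and glucocorticoids in maturing neurons, stood at 6.98 and 7.26 in GNPs and 9.31 and 9.43 in cerebellum (difference -2.25), and Dio2, which activates thyroid hormone in astrocytes, at 2.35 and 2.40 in GNPs and 5.52 and 6.03 in cerebellum (difference at most -3.40). Per1, which is both a clock gene and an immediate early gene, was higher by 1.82, and Fkbp5, a glucocorticoid target, by 1.01. Hlf, a relative of Dbp among the factors of mature neurons, was lower by a difference of -4.70. Of those 28 factors 5 were higher and 10 lower, and Mef2c stood against that trend at 9.42 and 9.60 in GNPs and 5.56 and 5.91 in cerebellum. The hour of tissue collection is not given in the sources used here.

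Other signaling pathways had calls in both directions, as did all genes (14.9% higher and 13.6% lower). Tgfb2, a growth factor, stood at 9.63 and 9.46 in GNPs and 4.68 and 4.80 in cerebellum, a difference of 4.80 (SE 0.44, adjusted p = 2.72e-05 from limma), and Bmp4, which drives granule progenitors out of the cycle, at 5.30 and 5.26 in GNPs and 2.52 and 3.99 in cerebellum, higher by 2.02. Smad7, an inhibitor of both, was lower by a difference of -1.81. The call of Bmp4 was lost with the 4 normal samples fitted alone. Of 25 genes of the BMP and TGF-beta pathways 5 (20%) were higher and 4 (16%) lower. The 4 lower calls became 2 without GNP replicate 2. Of 21 Notch genes 5 (23.8%) were higher and 1 (4.76%) lower. The 5 higher calls became 3 without GNP replicate 2 or cerebellum replicate 1 and 2 without GNP replicate 1, and the 1 lower call became 0 without GNP replicate 1. Jag1, the ligand of granule progenitors, stood at 4.83 and 4.63 in GNPs and 3.35 and 3.38 in cerebellum, with its call lost without any 1 of the 4 normal samples, and Notch2, the receptor they use, at 5.29 and 5.13 in GNPs and 4.50 and 4.55 in cerebellum, with its call lost without GNP replicate 1. Of 28 WNT genes 6 (21.4%) were higher and 3 (10.7%) lower, with the receptor Fzd2 higher by 3.90, Fzd1 lower by a difference of -1.99 and Wnt7a, a signal of mature granule neurons, lower by a difference of -1.74. On its probe set of highest signal Wnt7a had a difference of 0.34, the opposite direction. Of 32 IGF, FGF and neurotrophin genes 5 (15.6%) were higher and 8 (25%) lower. The 5 higher calls became 3 without GNP replicate 1 and 2 without GNP replicate 2 or either cerebellum sample. Fgf13, a microtubule-stabilizing factor of young neurons, stood at 9.45 and 9.61 in GNPs and 6.25 and 5.58 in cerebellum, and Fgf1, of mature neurons, at 3.43 and 3.51 in GNPs and 7.45 and 7.11 in cerebellum. Igf1 stood at 3.04 and 3.15 in GNPs and 4.02 and 3.86 in cerebellum and its receptor Igf1r at 6.47 and 6.24 in GNPs and 6.33 and 6.45 in cerebellum, without a call.

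Of 35 genes of the extracellular matrix 7 (20%) were higher and 5 (14.3%) lower, against 14.9% and 13.6% of all genes. With the 4 normal samples fitted alone, 16 were higher and 6 lower. The 7 higher calls became 3 without any 1 of the 4 samples, and the 5 lower calls became 3 without either GNP sample. Col3a1, a collagen of fibroblasts and meninges, stood at 9.95 and 10.43 in GNPs and 4.43 and 4.84 in cerebellum, with its call lost without any 1 of the 4 normal samples. Its difference ran from 5.32 to 5.80 in those fits. Col1a1, another such collagen, was higher by 3.46 without a loss of its call. Hapln4, of the perineuronal nets, stood at 2.55 and 2.55 in GNPs and 8.05 and 8.36 in cerebellum (difference -5.65), and Timp4 was lower by a difference of -5.68. Of 31 genes of the primary cilium, the organelle that hedgehog signaling requires, 1 (3.23%) was higher and 9 (29.0%) lower. Bbs2 was lower by a difference of -2.11 and Ift80 by a difference of -1.85, whereas Ift20 stood at 8.60 and 8.87 in GNPs and 8.70 and 8.77 in cerebellum without a call. The 1 higher call became 0 without either GNP sample or cerebellum replicate 1, and the 9 lower calls became 5 without GNP replicate 2 or either cerebellum sample.

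Of 20 genes of position along the hindbrain, 2 (10%) were called higher and 0 lower, against 14.9% and 13.6% of all genes. The 2 higher calls became 1 without GNP replicate 1 and 0 without GNP replicate 2 or either cerebellum sample. En2, which marks midbrain and cerebellum, stood at 10.60 and 10.02 in GNPs and 11.20 and 10.98 in cerebellum, and the Hox genes of the list were at or near the floor in all 4 samples. Irx1 and Irx2 were higher by 1.26 and 2.50, with both calls lost without any 1 of the 4 normal samples. Otx2, a homeobox gene of midbrain and posterior cerebellum, stood at 10.23 and 9.93 in GNPs and 6.95 and 7.50 in cerebellum without a call (adjusted p = 0.419 from limma), and was named after its values were seen. In the MBs, whose spread enters the SE, Otx2 ranged from 2.23 to 9.70. Of 10 forebrain markers, Emx1, Emx2, Lhx6, Dlx1, Dlx5 and Drd2 were at or near the floor in all 4 samples. Neurod6, a basic helix-loop-helix factor best known from cortical neurons, stood at 10.73 and 9.99 in GNPs and 3.64 and 5.21 in cerebellum, a difference of 5.94 (SE 0.72, adjusted p = 0.000182 from limma), and in the MBs it ranged from 8.78 to 10.90. Drd1, a dopamine receptor, stood at 6.36 and 7.70 in GNPs and 2.52 and 2.51 in cerebellum, higher by 4.52. Dlx2 was called lower at 2.20 and 2.20 in GNPs and 2.28 and 2.27 in cerebellum, both tissues near the floor, so that this call carries no fold. Among the genes with the highest differences were also receptors and peptides of young neurons. Glra2, a fetal glycine receptor subunit, was first of the ranked genes at 10.16 and 10.75 in GNPs and 2.57 and 3.50 in cerebellum (difference 7.42). Pnoc, which encodes nociceptin, stood at 10.08 and 10.39 in GNPs and 3.80 and 3.90 in cerebellum (difference 6.39). Eomes, the T-box factor of unipolar brush cells, stood at 10.05 and 10.01 in GNPs and 7.37 and 7.51 in cerebellum without a call (adjusted p = 0.0613 from limma). Its MB values ranged from 3.76 to 6.40. Of 9 markers of unipolar brush cells and cerebellar nuclei 1 (11.1%) was higher and 1 (11.1%) lower.

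Choroid plexus genes differed between the replicates of both tissues. Ttr, the transthyretin of the choroid plexus, stood at 12.76 and 8.50 in GNPs and 5.56 and 14.47 in cerebellum, and Folr1, of the same epithelium, at 5.68 and 2.35 in GNPs and 2.35 and 7.09 in cerebellum. Both were higher in GNP replicate 1 than in replicate 2 and in cerebellum replicate 2 than in replicate 1, and the tissues overlapped. Of the 11 markers of choroid plexus and ependyma 3 were called higher in GNPs, among them the ciliogenesis factor Foxj1 (5.07 and 3.19 in GNPs and 2.50 and 2.69 in cerebellum, call lost without either cerebellum sample) and Dynlrb2 (6.12 and 5.02 in GNPs and 2.69 and 3.48 in cerebellum). Foxj1 and Dynlrb2 lost their calls with the 4 normal samples fitted alone. Markers of red cells (Hba-a1, Alas2 and Epb42) stood at or below 2.39 in all 4 samples. Of 14 meningeal markers 4 (28.6%) were higher and 2 (14.3%) lower. The 4 higher calls became 2 without GNP replicate 2 or either cerebellum sample and 1 without GNP replicate 1. Col1a2 was among them, at 7.72 and 7.90 in GNPs and 5.42 and 5.40 in cerebellum, with its call lost without any 1 of the 4 normal samples. Its 3 probe sets had differences from 0.03 to 4.38.

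**Figure D5:**
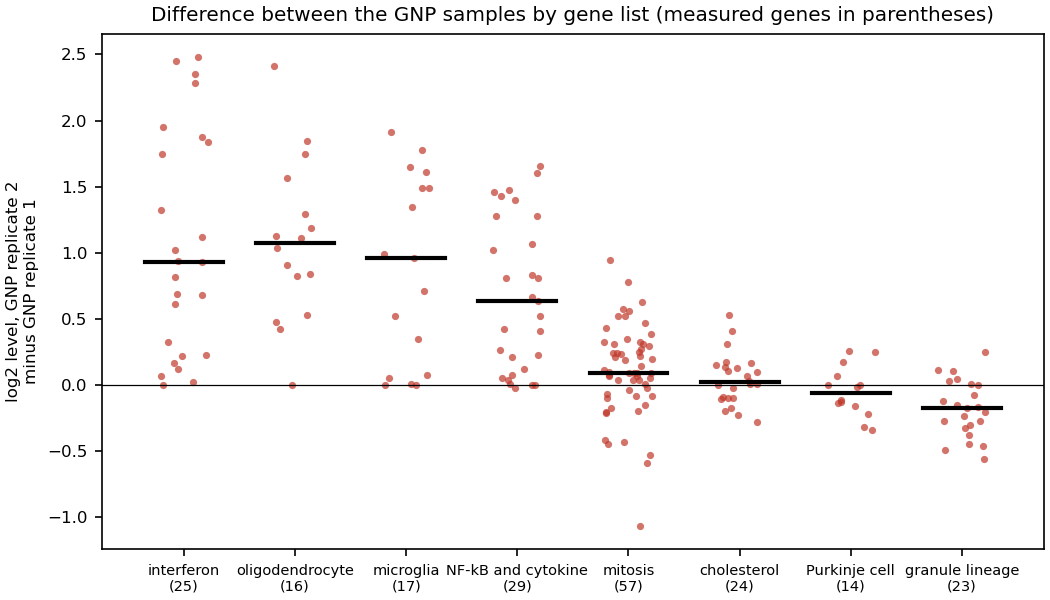
Log2 expression level of GNP replicate 2 minus that of GNP replicate 1 (vertical axis) for each measured member of 8 gene lists (horizontal axis), with the list's median as a black bar and the horizontal line at 0. The medians of interferon, oligodendrocyte and microglia genes lie near 1, that of cytokine genes at 0.64, and those of mitosis, cholesterol synthesis, Purkinje cell and granule lineage genes near 0.

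The highest differences that fell in none of these groups were spread over several functions. Tnnc2, a troponin C of fast muscle, stood at 8.74 and 9.49 in GNPs and 2.23 and 2.23 in cerebellum (difference at least 6.88), Blnk, an adaptor known from B cells, at 9.02 and 8.81 in GNPs and 2.27 and 3.24 in cerebellum (difference 6.15) and Rprm, a p53-linked inhibitor of the cell cycle, at 10.65 and 10.42 in GNPs and 4.60 and 4.60 in cerebellum (difference 5.94). Tox3, Epb41l4a, Nt5dc2 and Ctxn1 completed the 20 highest together with genes given above. On the other side stood Car4, a membrane carbonic anhydrase, at 2.83 and 2.75 in GNPs and 11.61 and 11.70 in cerebellum (difference -8.86), Fam107a, an actin-bundling gene of astrocytes and neurons, at 2.55 and 2.55 in GNPs and 11.44 and 11.37 in cerebellum (difference -8.86), and Thy1, a surface antigen of mature projection neurons, at 4.35 and 4.94 in GNPs and 11.61 and 11.56 in cerebellum (difference -6.94). The others among the 20 lowest were Ppp1r17, Crtam, Slc1a6, Snhg11, Itih3, Rnf112, Itpka, Ntsr2, Car8 and Car2, of which Ppp1r17, Slc1a6 and Car8 are Purkinje cell genes. Of 10092 probe sets with several genes or none, 661 were higher and 845 lower in GNPs. Of 2779 called genes with several probe sets, 31 had probe sets that differed by more than 0.5 in opposite directions. That count leaves out genes with a probe set near 0 beside one that moved, such as Jag1 (0.05 to 2.35), Fkbp5 (0.06 to 2.63) and Klf9 (-3.05 to -0.0006).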

How the data were processed

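Expression was measured on Affymetrix whole-genome mouse 3′ expression arrays, 1 array a sample, from Trizol-extracted RNA. The authors deposited log2 values, which their methods describe as processed in R with the affy package and GCRMA, a background correction that uses the sequence of each probe. GCRMA sets dim probe sets to a common floor, so differences that involve the floor are bounds. Probe sets were named through GEO's platform annotation, in which 34945 of 45101 probe sets pair with 1 gene, 932 with several and 9160 with none (64 array controls were left out). A gene was the mean of its single-gene probe sets without an _s_at or _x_at suffix, or of those with one where it had no other (290 genes), which gave 18193 genes. The 12 samples were fitted in 3 groups with limma 3.58.1 in R 4.3.3 (lmFit and eBayes), and the contrast of GNPs with cerebellum was tested two-sided at 0.05 after Benjamini-Hochberg adjustment. The study's methods used an unpaired t-test, which was run as an alternative. No source says that the samples of a group came from separate animals beyond the number in each title. The p-values thus measure the spread between these samples, mostly that between the MBs. The members and the 57 gene lists were chosen with earlier results of these data known. Genes were named by a rule: the first 3 measured genes of each list, the 2 highest and 2 lowest called members of each, the 20 highest and 20 lowest called genes of all, and those the study names for these arrays. Predicted gene models were left out of the 20 highest and 20 lowest. Genes outside it are said to have been named after their values were seen. Sufu, Gas1, Lhx6, Dlx1, Dlx5 and Drd2 lie outside it too and were also named after their values were seen. Some genes that the rule names are not reported here. No value was to be had for 93 listed genes, which are not analysed here. The script was tested on simulated data. Promoter sequences are RefSeq's for GRCm38.p6. No column of the table was without a sample.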

Additional observations from a re-analysis of the deposited data

How the results depend on the processing

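With 2 samples a tissue, the spread is mostly that of the MBs, and values near the floor carry no order. Every array shifted to the same median gave 7352 lower genes in place of 2477, as given above. A minimum log2 difference of 1 left 542 higher and 669 lower genes, and the methods' t-test after Benjamini-Hochberg adjustment left 1094 and 1099 (3308 and 2975 at an unadjusted p of 0.05). The other processing alternatives stayed within 1.5 times both counts. Leaving out 1 sample gave 1950 to 2852 higher and 1882 to 2575 lower genes. Of the 5180 calls, 72.3% to 74.9% remained without 1 GNP or cerebellum sample, 94.4% to 96.8% without 1 MB, and 69.0% with the 4 normal samples fitted alone. Of 234 named genes that were called, 173 kept their call in every fit that left out 1 sample. On the probe set of highest signal Wnt7a had a difference of 0.34 and Srxn1 one of -0.0488, against the direction of their means. No other named gene that was called in the main fit or in the alternative changed direction. Changes of sign in genes called in neither were not counted. The probe set of highest signal ended the calls of Ccng1, Cntn2, Col1a2, Gfap, Gria1, Mbp, Pdgfra and Wnt7a among the genes named above, and the median of probe sets those of Ccng1, Fkbp5, Jag1, Lig3 and Mycn. With the 4 normal samples fitted alone, 36 of 335 named genes lost a call and 18 gained one. Of genes named above whose calls held with 1 sample left out, those lost there were Bmp4, Cd14, Cyp46a1, Dynlrb2, Irf9, Mag, Mcm6, Phlda3 and Ptf1a. The cause was not tested. Restricting the shifted arrays to genes above a level of 5 was chosen after seeing the data. No paired analysis was possible because the numbers in the titles differ between all samples.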
